A study of Mus musculus with 12 samples.

Results

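The genes described here were low in embryonic stem cells kept without leukemia inhibitory factor (LIF) and higher both in the same cells with LIF and in cardiopoietic cells. They number 93 of the 18193 genes that the array names by a single symbol, and they were chosen from the measured values. For each gene the probe set with the highest mean over 12 arrays was taken, and stage means of log2(signal + 16) were compared. A gene was kept when its mean without LIF lay at least 1 log2 unit (a factor of 2) below the mean with LIF, when its mean in cardiopoietic cells lay at least 1 above the mean without LIF, and when its mean signal with LIF was 200 or more. The first and the third condition alone were met by 212 genes, of which 93 (43.9%) also met the second and 119 did not.

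The arrays came from 4 stages of one mouse embryonic stem cell line, CGR8, which was grown without feeder cells and carries no allele or transgene that the study names, and each stage was sampled 3 times. ES-LIF(+) cells were grown with LIF, and ES-LIF(-) cells had spent 48 h without it. Cardiopoietic cells (CP) were intermediates derived in a cocktail of BMP, TGFβ, IL13, IL3, IGF1, VEGF, EGF, FGF and IL6, maintained for 5 days in 3% serum with TNFα. Cardiomyocytes (CM) came from cells stimulated in the same cocktail and maintained for 9 days in 20% serum. The cocktail as listed contained IL6, and LIF is not on that list. CP and CM were purified on Percoll density gradients, and the ES stages were not, so purification, serum, time in culture and the factors cannot be told apart in any comparison between an ES stage and a later one. All p values describe the spread between the 3 samples of a stage of this one line.

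Signals are relative brightness values, scaled by the authors on each array. The median probe set of an array read between 101 and 111 in ES-LIF(+), 104 and 110.2 in ES-LIF(-), 129 and 136 in CP and 128 and 144 in CM, and a gene near those levels is read close to background. The summed signal of the stem cell markers Pou5f1, Nanog and Sox2 lay between 29467 and 29882 in ES-LIF(+), between 20953 and 22919 in ES-LIF(-), between 18905 and 19406 in CP and between 3986 and 5578 in CM. That of the cardiomyocyte markers Tnnt2, Myh6, Actn2 and Myl7 was at most 611 in both ES stages, reached 1418 in CP and ran from 79438 to 94124 in CM, so the labels of the first and the last stage were borne out by their defining genes. The 5 fibroblast markers (Dcn, Col1a1, Col1a2, Lum and Thy1) summed to at most 1436 in the ES stages, to between 70941 and 75921 in CP and to between 36627 and 37435 in CM. RNA came from whole cultures or gradient fractions, and fewer cells of a type and less RNA per cell cannot be told apart in such samples.

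LIF is a cytokine of the IL6 family. It binds its receptor Lifr together with the shared subunit gp130 (Il6st), the bound kinases of the JAK family phosphorylate the transcription factor Stat3, and Stat3 enters the nucleus and activates its targets, among them Socs3, which binds the receptor complex and shuts the signal down. In mouse embryonic stem cells this pathway sustains the naive pluripotent state, in which a circuit of transcription factors that includes Klf4, Klf2, Esrrb, Tfcp2l1, Tbx3 and Nanog is active. IL6 signals through the same gp130 subunit, with its own receptor Il6ra in place of Lifr. Of the 37 genes on a list of this pathway, 34 were named on the array and 3 were members, Stat3, Socs3 and Jak3. A list of genes known to respond to LIF or Stat3 had 8 members of 28 named genes (Klf4, Tfcp2l1, Tbx3, Junb, Bcl3, Icam1, Stat3 and Socs3), and a list of naive pluripotency genes had 9 of 29 (Klf2, Klf4, Esrrb, Tfcp2l1, Tbx3, Zfp42, Prdm14, Nr0b1 and Tcl1). Among all named genes, 93 of 18193 were members. The lists were written with earlier results of these data known, so these overlaps are a description and were not tested.

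Promoter stretches are shown for 4 of the 7 members that held a match to TTCNNNGAA, the palindrome that STAT factors recognise. They are the feedback inhibitor Socs3, the adhesion molecule Icam1, the naive factor Esrrb and the stress-induced gene Nupr1. Each stretch is the 250 bases before the RefSeq transcript start in mouse build GRCm38.p6, written 5′ to 3′ on the gene's own strand, and capitals mark the match. Socs3 lies on the minus strand at chr11:117969367-117969616, Icam1 on the plus strand at chr9:21015690-21015939, Esrrb on the plus strand at chr12:86360867-86361116 and Nupr1 on the minus strand at chr7:126625471-126625720.
Socs3: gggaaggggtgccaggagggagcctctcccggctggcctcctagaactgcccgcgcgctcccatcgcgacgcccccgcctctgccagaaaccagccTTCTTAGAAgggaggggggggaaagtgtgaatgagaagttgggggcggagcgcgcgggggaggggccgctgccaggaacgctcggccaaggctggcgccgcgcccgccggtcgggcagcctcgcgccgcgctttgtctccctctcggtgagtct
Icam1: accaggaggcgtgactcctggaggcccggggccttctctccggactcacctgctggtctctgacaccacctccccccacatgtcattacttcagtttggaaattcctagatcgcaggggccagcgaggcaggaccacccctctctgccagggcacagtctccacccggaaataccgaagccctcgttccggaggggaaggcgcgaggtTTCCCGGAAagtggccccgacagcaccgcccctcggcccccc
Esrrb: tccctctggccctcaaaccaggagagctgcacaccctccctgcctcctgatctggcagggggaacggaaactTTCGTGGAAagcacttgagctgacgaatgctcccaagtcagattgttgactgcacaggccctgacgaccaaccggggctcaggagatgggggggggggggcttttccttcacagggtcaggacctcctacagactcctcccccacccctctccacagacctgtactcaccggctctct
Nupr1: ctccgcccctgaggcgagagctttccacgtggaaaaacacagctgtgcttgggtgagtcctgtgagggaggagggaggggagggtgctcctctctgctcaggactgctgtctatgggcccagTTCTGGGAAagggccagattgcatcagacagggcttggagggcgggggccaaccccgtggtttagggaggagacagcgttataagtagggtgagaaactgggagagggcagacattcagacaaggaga
The match begins 154 bases before the start in Socs3, 42 in Icam1, 178 in Esrrb and 128 in Nupr1. RefSeq gave windows from 250 bases before to 50 bases after the start for 66 of the 93 genes. The letters TTCNNNGAA occurred in 7 of these 66 genes (10.6%), also in Arid5b, Cpsf4l and Emp1, against 9.55% of all 27025 genes with such a window and 9.68% of the 93 windowed genes that were lowered and not raised. The narrower TTCCNGGAA, every match of which is also a match to TTCNNNGAA, was found in 2 members, Icam1 and Cpsf4l (3.03% against 1.35% of all genes). TGANTCA, the AP-1 palindrome, was found in 4 members (6.06% against 8.97%), and an NF-κB consensus in 0 members against 0.466% of all genes. The windows of Stat3, Klf4, Tfcp2l1, Klf2, Zfp42, Nr0b1 and Bcl3 held no match to TTCNNNGAA, and neither did a second RefSeq window of Esrrb. All motifs were searched on both strands. These shares describe letters in short windows and not binding.

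The values that chose the members are given as a description only. The difference between ES-LIF(-) and ES-LIF(+) ranged from −4.07 (Klf4) to −1.02 (Ahnak) with a median of −1.68 on the log2 scale, and the difference between CP and ES-LIF(-) ranged from 1.01 (Nr0b1) to 4.89 (Nupr1) with a median of 1.61. Beside them, 3.86% of all 13145 tested genes were called lower (and 4.15% higher) in ES-LIF(-) than in ES-LIF(+), and 18.4% were called higher and 14.6% lower in CP than in ES-LIF(-), a background from which nothing is read because the rule used both contrasts. A call means an adjusted p under 0.05 in limma and a fold above 1.5. The 3 ES-LIF(-) arrays all lay below the 3 ES-LIF(+) arrays for 89 members, and the 3 CP arrays all lay above the 3 ES-LIF(-) arrays for 91. Expressed as a share of the difference without LIF, the difference in CP had a median of 95.8% and ran from 35.4% (Lrrc34) to 473% (Nupr1), so that 41 members stood in CP at or above their level with LIF and 52 below it. The mean ES-LIF(-) signal was below the array median for 22 members.

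Ahnak (−1.02) and Sting1 (−1.02) were the members with the smallest difference without LIF, and Tns3 (−0.98) and Hspb8 (−0.98) missed that threshold. Nr0b1 (1.01) and Nrp2 (1.03) had the smallest difference in CP, and Kit (0.97) and Slc15a1 (0.97) fell short. Nkain4 and Sting1 had the lowest mean signals with LIF, 210 and 213, against 199 for Pla2g7 and 187 for Sgms2 outside.

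**Figure D1:**
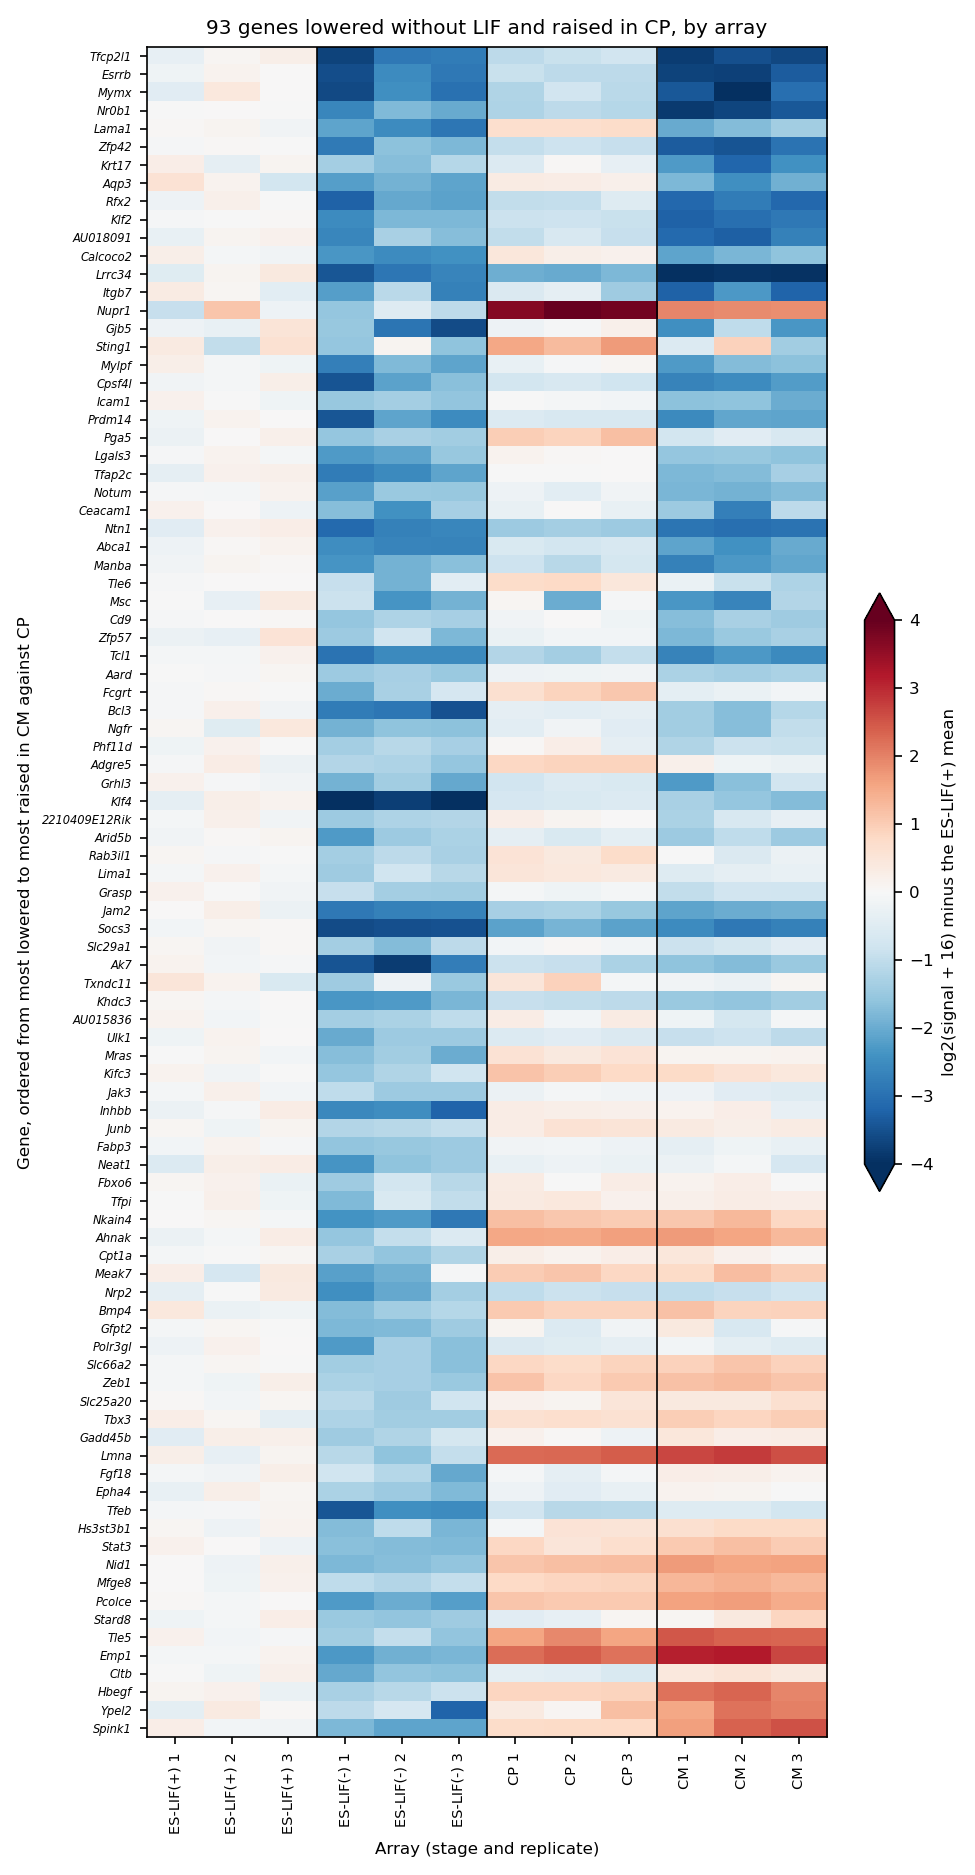
Heat map of log2(signal + 16) of the 93 members (rows) on the 12 arrays (columns), each value minus the gene's ES-LIF(+) mean, with blue below and red above it, colours capped at 4 units, and rows ordered by the difference between CM and CP. ES-LIF(-) columns are blue by construction, whereas in CM the upper rows (Tfcp2l1, Esrrb, Nr0b1) are blue and the bottom rows (Hbegf, Ypel2, Spink1) are red.

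Among the signalling members, Socs3 had the deepest difference without LIF, which was the second deepest of all members. Its signals were 3565, 4099 and 3966 in ES-LIF(+), 310.4, 324 and 332 in ES-LIF(-), 862, 1046 and 860.3 in CP and 670.3, 522 and 576 in CM, so no stages overlapped and CP stood below ES-LIF(+). The difference between CP and ES-LIF(+) was −2.06 ± 0.11 (adjusted p = 6.76e-10), and 41.6% of the difference without LIF had been made up. The difference, the lowest of any member, holds for the brightest probe set, and on the other Socs3 probe sets the difference between CP and ES-LIF(+) was −0.86 and −1.15, with 75.3% and 64.3% made up. In CM, Socs3 was lower than in CP (log2 difference −0.63 ± 0.11, adjusted p = 2.89e-04), and higher than in ES-LIF(-), by 0.83 ± 0.11 (adjusted p = 6.23e-06). Leaving out CP replicate 2 or CM replicate 2 brought the difference between CM and CP to −0.54 and −0.55, under the 1.5-fold limit, and the difference between CM and ES-LIF(-) was under it with median centring (0.53).

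Stat3, the transcription factor of the pathway, followed another course. Its signals were 2204, 1983 and 1673 in ES-LIF(+), 599.6, 567 and 559.8 in ES-LIF(-), 3494, 2696 and 3086 in CP and 4049.6, 4446 and 3914 in CM, so that all CP and CM arrays read above every ES-LIF(+) array. CP exceeded ES-LIF(+) by 0.66 ± 0.11 (adjusted p = 8.60e-05) and CM exceeded it by 1.08 ± 0.11 (adjusted p = 2.18e-07), whereas CM and CP differed by 0.42 ± 0.11 (adjusted p = 0.00507), which is under the 1.5-fold limit. The difference between CP and ES-LIF(+) was 0.55 without ES-LIF(+) replicate 3, 0.57 without CP replicate 1 and 0.38 with arrays centred on their medians, all under that limit. With the mean over all Stat3 probe sets, CP stood 0.54 and CM 0.45 above ES-LIF(+), and neither was called. That mean includes a dim probe set with stage means of 23.0 to 74.9. Jak3, a kinase best known from lymphoid cytokine receptors, read 613, 756 and 600.4 in ES-LIF(+), 318, 227 and 228 in ES-LIF(-), 553, 623 and 585 in CP and 564, 473 and 453 in CM. Its differences between CP and ES-LIF(+), −0.15 ± 0.15 (adjusted p = 0.413), and between CM and CP, −0.24 ± 0.15 (adjusted p = 0.239), were not called.

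The receptor subunits were not members and moved differently from one another. Lifr was lowered without LIF and not raised in CP by the rule, with signals of 1142, 1629 and 2019.6 in ES-LIF(+), 521, 619 and 432 in ES-LIF(-), 368, 578 and 394 in CP and 605, 533 and 617 in CM. Its log2 difference between CP and ES-LIF(+) was −1.79. Nothing is read from that difference, since the rule placed Lifr as high with LIF and not raised in CP. Il6st had mean signals of 978 ± 101 in ES-LIF(+), 510.5 ± 55.6 in ES-LIF(-), 2202 ± 251 in CP and 1754 ± 196 in CM, with CP above ES-LIF(+) by 1.16 (adjusted p = 8.40e-07). Jak1, a kinase bound to gp130, read 984 ± 159 in ES-LIF(+), 1107 ± 64.2 in ES-LIF(-), 1968 ± 174 in CP and 1877 ± 35.3 in CM, and every CP array lay above every ES-LIF(+) array. Of the 32 tested genes of the pathway list, 12 stood higher and 4 lower in CP than with LIF, beside 19.0% and 13.4% of all 13145 tested genes. In CM 2 of the 32 were higher and 3 lower than in CP, beside 9.18% and 10.5%, with list medians of 0.25 and −0.069 in these comparisons against 0.04 and −0.042 for all tested genes.

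The genes known to respond to LIF or Stat3 include the 2 deepest differences without LIF, those of Klf4 and Socs3. Klf4, a Krüppel-like factor of the naive circuit, read 2078, 3151 and 2969 in ES-LIF(+), 152, 181 and 111 in ES-LIF(-), 1684, 1756 and 1840.5 in CP and 1086, 911 and 799 in CM. It thus stayed above ES-LIF(-) in both later stages without overlap, and CM exceeded ES-LIF(-) by 2.54 ± 0.17 (adjusted p = 2.72e-09). Against ES-LIF(+), CP was lower (log2 difference −0.61 ± 0.17, adjusted p = 0.00696), a call that did not hold on leaving out replicate 2 (−0.49) or 3 (−0.54) of ES-LIF(+) or replicate 1 of CP (−0.58), or with quantile normalization (−0.52). Between CP and CM it fell (log2 difference −0.92 ± 0.17, adjusted p = 5.11e-04).

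Tfcp2l1, a transcription factor placed directly downstream of Stat3 in stem cells, read 2024, 2689 and 3001 in ES-LIF(+), 180, 337 and 351 in ES-LIF(-), 1229, 1348 and 1471 in CP and 167, 205 and 188 in CM. Its difference between CM and CP, −2.75 ± 0.20 (adjusted p = 5.94e-08), was the largest fall of any member, and the CM arrays overlapped the ES-LIF(-) arrays. The difference between CM and ES-LIF(-), −0.54 ± 0.20 (adjusted p = 0.0287), was not called, although it was without ES-LIF(-) replicate 1 (−0.83) or CM replicate 2 (−0.60) and with all arrays under median centring (−0.84) or quantile normalization (−0.87), and was 0.161 with the mean over all Tfcp2l1 probe sets. Between CP and ES-LIF(+) Tfcp2l1 was lower (log2 difference −0.91 ± 0.20, adjusted p = 0.0014), which was −0.26 and not called with that mean. The other Tfcp2l1 probe sets in that mean were dim, with stage means of 4.87 to 41.1. Tbx3, a T-box factor of the same circuit that also acts in the developing heart, went the other way, with signals of 445, 381 and 283 in ES-LIF(+), 146, 128 and 129.6 in ES-LIF(-), 567, 594 and 560.3 in CP and 737, 678 and 727 in CM. CP exceeded ES-LIF(+) by 0.64 ± 0.15 (adjusted p = 0.00243) and CM by 0.94 ± 0.15 (adjusted p = 4.99e-05). The first of these calls fell under the 1.5-fold limit without ES-LIF(+) replicate 3 (0.46) and was lost with median centring (0.35), quantile normalization (0.42) and the mean over probe sets (0.41). Most of the other Tbx3 probe sets were dim, with stage means of 4.87 to 91.

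Bcl3, an IκB family protein that works with NF-κB p50 and p52, read 809, 964 and 764 in ES-LIF(+), 109, 99.7 and 60.3 in ES-LIF(-), 648, 618 and 658 in CP and 308, 247 and 374 in CM, and Icam1, an endothelial and immune adhesion molecule that TNF induces, read 1080.2, 943 and 837 in ES-LIF(+), 325, 359 and 308 in ES-LIF(-), 939.5, 900.4 and 883 in CP and 292, 302 and 226 in CM. In CP they differed from their level with LIF by −0.38 and −0.063, and neither was called with all arrays (Bcl3 was called lower, at −0.67, with median centring). Both were lower in CM than in CP, Bcl3 (log2 difference −1.03 ± 0.19, adjusted p = 5.17e-04) and Icam1 (log2 difference −1.69 ± 0.13, adjusted p = 1.25e-07), and every CM array of Icam1 read below every ES-LIF(-) array, a difference that was not called (−0.27) except with quantile normalization (−0.60). Junb, an AP-1 subunit, read 592, 493 and 602 in ES-LIF(+), 240.2, 251 and 281 in ES-LIF(-), 698, 854 and 810.1 in CP and 729, 660.1 and 712 in CM, and its CP and CM arrays overlapped, with a difference of −0.16 ± 0.12 (adjusted p = 0.333). Of the 28 tested genes of the whole list, 8 stood higher and 10 lower in CP than with LIF, beside 19.0% and 13.4% of all tested genes, and 1 was higher and 13 lower in CM than in CP, beside 9.18% and 10.5%. The list's median difference was −0.055 in the first comparison and −0.51 in the second, against 0.04 and −0.042 for all tested genes.

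**Figure D2:**
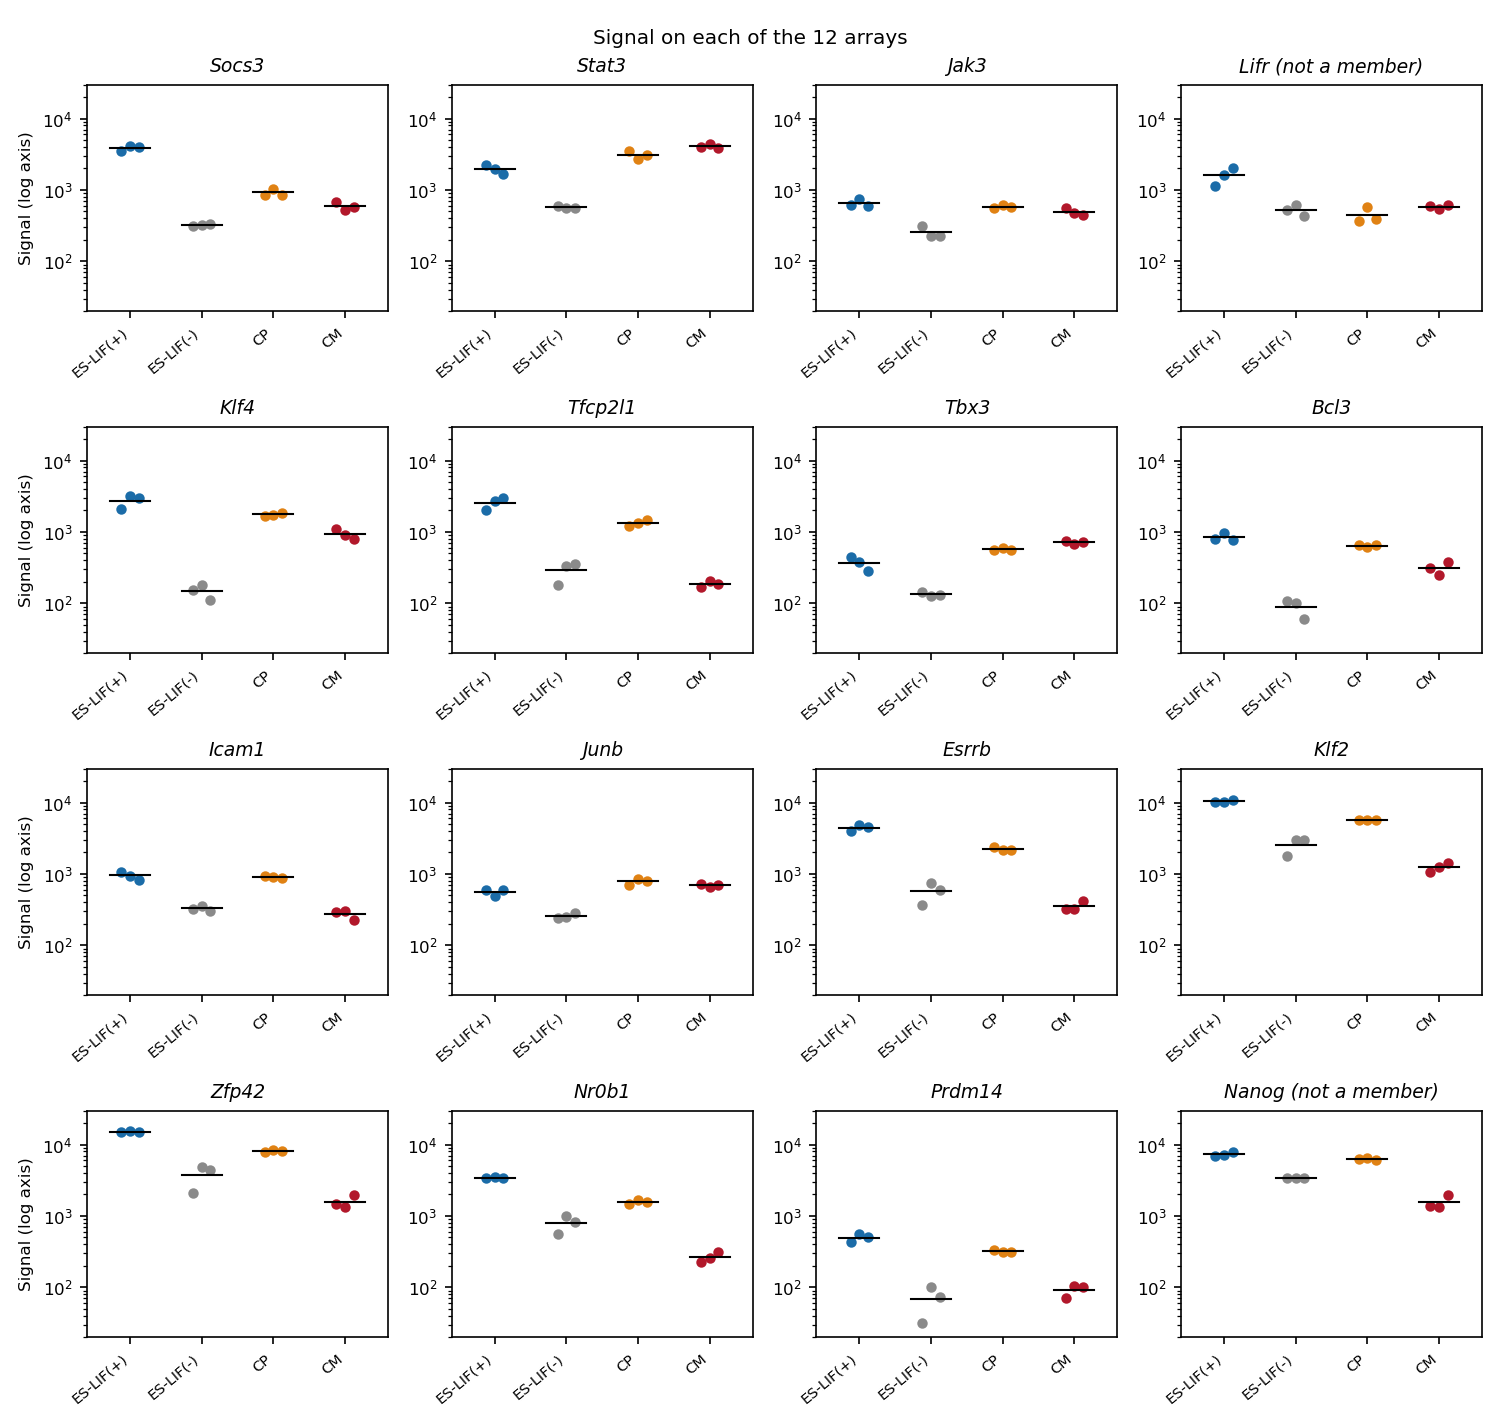
Signal (log axis) of 14 members and of Lifr and Nanog, which are not members, on each of the 12 arrays, with the 3 arrays of a stage as points and their mean as a bar. Stat3 and Tbx3 read highest in CM, the CP and CM points of Junb overlap, and Tfcp2l1, Esrrb, Klf2, Zfp42, Nr0b1 and Nanog read lowest in CM.

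The naive pluripotency members were lower in CP than with LIF and lower again in CM, with few exceptions. Zfp42 (Rex1), a zinc finger protein that marks the naive state, was the brightest member, with signals of 14759, 15455 and 15087 in ES-LIF(+), 2129.5, 4846 and 4366 in ES-LIF(-), 7865, 8468 and 8023 in CP and 1479.6, 1356 and 1939.8 in CM. It was lower in CP than in ES-LIF(+) (log2 difference −0.89 ± 0.21, adjusted p = 0.00237) and fell further in CM (log2 difference −2.35 ± 0.21, adjusted p = 5.46e-07). Klf2, the second Krüppel-like factor, read 10059, 10336 and 10691 in ES-LIF(+), 1786, 2984 and 2988 in ES-LIF(-), 5667, 5773 and 5624 in CP and 1083, 1258 and 1402 in CM and showed the same order, with −0.86 ± 0.15 (adjusted p = 1.56e-04) between CP and ES-LIF(+) and −2.18 ± 0.15 (adjusted p = 2.84e-08) between CM and CP. In both genes every CM array lay below every ES-LIF(-) array, and the difference was −1.17 for Zfp42 and −1.01 for Klf2, both called.

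The set held orphan nuclear receptors. Esrrb, which occupies many of the same sites as Nanog, read 3977, 4864 and 4526 in ES-LIF(+), 365, 758 and 596 in ES-LIF(-), 2369, 2162 and 2142 in CP and 325, 319.8 and 425 in CM, and its CP level was lower than that with LIF (log2 difference −0.99 ± 0.19, adjusted p = 3.70e-04) and its CM level lower than in CP (log2 difference −2.60 ± 0.19, adjusted p = 5.51e-08). The CM arrays overlapped those of ES-LIF(-), and the difference of −0.61 ± 0.19 (adjusted p = 0.00977) lost its call without ES-LIF(-) replicate 2 (−0.39) or 3 (−0.55) and without CM replicate 1 (−0.55) or 2 (−0.54), and was 0.00411 with the mean over all Esrrb probe sets. With that mean the difference between CP and ES-LIF(+) was −0.50 and lost its call. The further Esrrb probe sets differed. The dimmer read 512 in ES-LIF(+), 76.3 in ES-LIF(-), 583 in CP and 204 in CM, so CM stood above ES-LIF(-). The brighter read 1555, 584, 937 and 364.5 in the same order, with CM below ES-LIF(-). Nr0b1 (Dax1) read 3425, 3502 and 3396 in ES-LIF(+), 551, 990.2 and 833 in ES-LIF(-), 1464, 1663 and 1567 in CP and 226, 257 and 313 in CM without overlap between any of the stages, and it was lower in CM than in ES-LIF(-) (log2 difference −1.49 ± 0.16, adjusted p = 7.46e-07), the lowest such difference of all members.

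Prdm14, a repressor of FGF signalling and of DNA methyltransferases, read 436, 555 and 508 in ES-LIF(+), 32, 102 and 73.6 in ES-LIF(-), 335, 312 and 316 in CP and 71.3, 105 and 102 in CM. Its difference between CP and ES-LIF(+), −0.61 ± 0.28 (adjusted p = 0.0781), was not called with all arrays and was called without ES-LIF(-) replicate 1 or 2 (adjusted p = 0.0187 and 0.047), with the same value. With all arrays Prdm14 was called lower under median centring (−0.89, adjusted p = 0.0119), quantile normalization (−0.84, adjusted p = 0.0246) and a limma fit of those stages alone (adjusted p = 0.00361). The methods' analysis of variance also gave a call (adjusted p = 1.90e-04). Its F covers all 4 stages, including the differences that chose the genes, so nothing is read from that call. In CM it was lower than in CP (log2 difference −1.65 ± 0.28, adjusted p = 2.22e-04), and not called against ES-LIF(-), except without ES-LIF(-) replicate 2 (0.72). Tcl1, a coactivator of AKT, read 1908, 1936 and 2286 in ES-LIF(+), 249.9, 333 and 332 in ES-LIF(-), 892, 776 and 1048 in CP and 304, 399 and 337 in CM, lower in CP than with LIF (log2 difference −1.17 ± 0.14, adjusted p = 6.75e-06) and lower in CM than in CP (log2 difference −1.34 ± 0.14, adjusted p = 3.09e-06).

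Of the 29 tested genes of the naive list, 1 (Tbx3) was higher and 22 lower in CP than in ES-LIF(+), and 0 were higher and 25 lower in CM than in CP, beside the shares of 19.0% and 13.4% and of 9.18% and 10.5% given above. The list's medians were −0.90 and −1.65. The naive genes lowered without LIF and not raised by the rule were 8 (Nanog, Klf5, Nr5a2, Gbx2, Tcea3, Dppa3, Pecam1 and Fbxo15). Nanog had mean signals of 7260.3 ± 435 in ES-LIF(+), 3418 ± 29 in ES-LIF(-), 6268 ± 236 in CP and 1568 ± 364 in CM, and its CP level was not called different from that with LIF (−0.21, adjusted p = 0.129). Pou5f1, which encodes the pluripotency factor Oct4, read 11365 ± 631 in ES-LIF(+), 11362 ± 199 in ES-LIF(-), 6775 ± 82.5 in CP and 1854 ± 345 in CM, with overlapping arrays in the ES stages and lower values in CP. The fall of the naive members in CM went with the lower sum of the stem cell markers there, and its part in each gene's difference was not tested.

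In the comparison of CP with ES-LIF(+), both of which were chosen as high, 22 of the 93 members were higher, 19 lower and 52 not called, beside 19.0% and 13.4% of all tested genes, with a median of −0.063 and a range from −2.06 to 3.86. With arrays centred on their medians, which lowered the median of all tested genes by 0.284 in this comparison, the counts were 13 higher and 31 lower. The members called lower besides those above included Lrrc34, a leucine-rich repeat protein (−1.93 ± 0.23, adjusted p = 3.48e-06), Ntn1, the axon guidance cue netrin-1 (−1.42 ± 0.18, adjusted p = 6.68e-06), and Jam2, a junctional adhesion molecule (−1.37 ± 0.12, adjusted p = 1.70e-07). Lrrc34 read 1204, 1816 and 2237 in ES-LIF(+), 143, 217 and 257 in ES-LIF(-), 425, 405 and 474 in CP and 71.3, 96.2 and 93.7 in CM, and CP made up 35.4% of the difference.

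The members called higher in CP than with LIF were led by Nupr1, a nuclear protein induced by stress. It read 138, 625 and 241 in ES-LIF(+), 85.6, 189 and 126 in ES-LIF(-), 3737, 4840.3 and 4259 in CP and 1116, 1067 and 1059 in CM, and CP exceeded ES-LIF(+) by 3.86 ± 0.36 (adjusted p = 3.27e-07). The ES-LIF(+) and ES-LIF(-) arrays of Nupr1 overlapped, with ES-LIF(+) replicate 2 above the other ES arrays. Lmna, the gene of the nuclear lamins A and C, read 631, 422 and 572 in ES-LIF(+), 238, 166 and 266 in ES-LIF(-), 2630.4, 2696 and 2923 in CP and 3474, 3772 and 3235 in CM and exceeded its level with LIF by 2.33 ± 0.15 (adjusted p = 8.99e-09) in CP and by 2.67 ± 0.15 (adjusted p = 5.50e-10) in CM. Emp1, an epithelial membrane protein, read 541, 545 and 634 in ES-LIF(+), 105, 139 and 151 in ES-LIF(-), 2724, 3141 and 2632 in CP and 5090.1, 5251 and 3725 in CM and stood 2.27 ± 0.14 (adjusted p = 4.44e-09) above ES-LIF(+) in CP and 2.98 ± 0.14 (adjusted p = 5.91e-11) above it in CM.

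Pcolce, which enhances the cutting of procollagen, read 2049.7, 1891 and 2006 in ES-LIF(+), 398, 485 and 418 in ES-LIF(-), 4301, 4154 and 4120.2 in CP and 6084, 6383 and 5549 in CM, and Tle5, a Groucho family corepressor, read 768, 637 and 659.6 in ES-LIF(+), 253, 348 and 218 in ES-LIF(-), 2093, 2645 and 2102 in CP and 3907, 3614 and 3547 in CM. In both genes the CM arrays read highest, then those of CP, without overlap of stages, and Pcolce exceeded ES-LIF(+) in CP by 1.07 ± 0.082 (adjusted p = 4.05e-08) and Tle5 by 1.70 ± 0.14 (adjusted p = 9.61e-08). Nkain4, which binds the sodium pump, read 211, 222 and 197 in ES-LIF(+), 27, 30.6 and 15.4 in ES-LIF(-), 509, 463 and 440.2 in CP and 465, 536 and 382 in CM, so its ES-LIF(-) arrays lay under the array median. Bmp4, a TGFβ family ligand, read 1143, 707 and 761 in ES-LIF(+), 244, 312 and 379.9 in ES-LIF(-), 1794, 1577 and 1594 in CP and 1933, 1596 and 1634 in CM, higher in CP than with LIF by 0.94 ± 0.17 (adjusted p = 2.27e-04) and not called between CM and CP (0.053 ± 0.17, adjusted p = 0.842). The sum of the fibroblast markers was higher in CP and CM than in the ES stages in the same samples as Lmna, Emp1, Pcolce, Tle5 and Bmp4, and its part in these differences was not tested. Between CP and CM the mean signals of Dcn (17101 to 1262), Lum (4911 to 762) and Thy1 (1983 to 574) fell. Those of Col1a1 (26577 to 20890) and Col1a2 (22311 to 13662) fell as well. None of Lmna, Emp1, Pcolce, Tle5 and Bmp4 was called lower in CM than in CP. No gene of the 23 on the matrix and fibroblast list was a member, although all 23 stood higher in CP than with LIF, beside 19.0% of all tested genes. The list did not hold every matrix gene, and the members Pcolce and Lama1 were not on it.

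CM was not used to choose the genes, and the members divided there. Against CP, chosen as high, 49 of 93 members were lower, 7 higher and 37 not called, beside 10.5% and 9.18% of all tested genes, and their median was −0.74 against −0.042 for all. Against ES-LIF(-), chosen as low, 56 were higher and 7 lower, beside 24.4% and 24.5%, with a median of 0.89 against 0.03. Against ES-LIF(+), chosen as high, 20 were higher and 49 lower, beside 25.8% and 23.9%, with a median of −0.68 against 0.06. Each stage compared with CM was picked as high or low, and how far that choice sets the counts was not tested. Median centring left 51 lower and 7 higher against CP, and gave 46 higher and 12 lower against ES-LIF(-).

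The groups that follow combine calls of different comparisons, and their shares among all tested genes were not counted. Lower in CM than in both CP and ES-LIF(-) were 7 members, Esrrb, Klf2, Nr0b1, Zfp42, Lrrc34, Krt17 and AU018091. For Esrrb the order of CM and ES-LIF(-) depended on the probe set, as given above. Krt17, a keratin of stratified epithelia, read 258, 161 and 234 in ES-LIF(+), 72.7, 54.6 and 89.1 in ES-LIF(-), 143, 222 and 168 in CP and 32.3, 9.3 and 27.1 in CM with every ES-LIF(-) and CM array below the array median, so its call between them (−1.21 ± 0.33, adjusted p = 0.00423) rests on dim values, and was lost with the mean over Krt17 probe sets (−0.65). The other Krt17 probe set in that mean was dim as well, with stage means of 25.5 to 36.8. AU018091 read 2564, 3383 and 3572 in ES-LIF(+), 497, 1265 and 945 in ES-LIF(-), 1586, 2031 and 1639.8 in CP and 347, 315 and 472 in CM, with a difference between CM and ES-LIF(-) of −1.14 ± 0.25 (adjusted p = 7.81e-04). Another 29 were lower in CM than in CP and not called against ES-LIF(-), among them Tfcp2l1, Icam1, Prdm14, Tcl1, Cd9 and Mymx. Cd9, a tetraspanin of the stem cell surface, read 3763, 3882 and 4001 in ES-LIF(+), 1304, 1644 and 1539.9 in ES-LIF(-), 3506, 3939 and 3420.2 in CP and 1170.2, 1575 and 1436 in CM. Mymx, the muscle fusion peptide myomixer, read 372, 689 and 520 in ES-LIF(+), 27, 81.3 and 51.2 in ES-LIF(-), 212, 296 and 232 in CP and 34.8, 8.5 and 49.1 in CM, and its CM arrays were all under the array median, with a difference from CP of −2.59 ± 0.38 (adjusted p = 6.02e-05).

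Lower in CM than in CP and still higher than in ES-LIF(-) were 13 members, Klf4, Socs3, Bcl3, Nupr1, Lama1, Tfap2c, Jam2, Adgre5, Fcgrt, Lima1, Pga5, Rab3il1 and Slc29a1. The calls against ES-LIF(-) were lost with median centring for Socs3 (0.53), Lama1 (0.48) and Tfap2c (0.55), and with quantile normalization for Lama1 (0.49) and Tfap2c (0.53). Lama1, the α1 chain of the first laminin of the embryo, read 525, 553 and 458 in ES-LIF(+), 107, 77 and 55.2 in ES-LIF(-), 822, 829 and 853 in CP and 114, 142 and 184 in CM, so CP stood above all other stages. It exceeded ES-LIF(+) in CP by 0.69 ± 0.21 (adjusted p = 0.01) with all arrays as deposited, which was not called with median centring (0.41) or quantile normalization (0.56), and fell in CM (log2 difference −2.41 ± 0.21, adjusted p = 2.78e-07). Tfap2c, the AP-2γ factor of trophoblast and germ cells, read 634, 908 and 933 in ES-LIF(+), 104, 126 and 178 in ES-LIF(-), 797, 809.5 and 814 in CP and 221, 234 and 313 in CM, with no call between CP and ES-LIF(+) (−0.011 ± 0.19, adjusted p = 0.966), and fell in CM (log2 difference −1.61 ± 0.19, adjusted p = 9.11e-06). Gjb5, a connexin of epithelia that belongs with the 29 above, read 215, 197 and 358 in ES-LIF(+), 76.8, 19.2 and 5.9 in ES-LIF(-), 211, 237 and 291 in CP and 32.3, 115 and 36.4 in CM. Its ES-LIF(-) and CM arrays overlapped, and it was lower in CM than in CP (log2 difference −1.91 ± 0.48, adjusted p = 0.00508) and not called against ES-LIF(-), except without ES-LIF(-) replicate 1 (1.32). The methods' analysis of variance also gave a call (0.74), but its p covers all 4 stages together and not this difference.

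Not lower in CM than in CP, and higher in CM than with LIF, were 19 members, Ahnak, Bmp4, Emp1, Hbegf, Hs3st3b1, Kifc3, Lmna, Meak7, Mfge8, Nid1, Nkain4, Pcolce, Slc66a2, Spink1, Stat3, Tbx3, Tle5, Ypel2 and Zeb1. The second condition alone, higher in CM than in ES-LIF(+), was met by 25.8% of all tested genes. Spink1, Ypel2 and Hbegf had the largest differences from CP to CM. Spink1, a secreted trypsin inhibitor, read 426, 329 and 317 in ES-LIF(+), 90.5, 70.1 and 69.5 in ES-LIF(-), 596, 617 and 634 in CP and 1144, 1866 and 2138 in CM and rose from CP to CM by 1.41 ± 0.20 (adjusted p = 3.85e-05). Hbegf, a ligand of the EGF receptor, read 553, 573 and 417 in ES-LIF(+), 199.9, 230.3 and 271 in ES-LIF(-), 936, 930.4 and 952 in CP and 2352, 2619 and 1998 in CM and rose by 1.28 ± 0.14 (adjusted p = 3.29e-06). In both genes every CM array lay above every array of the other stages. Ypel2 read 173, 305 and 241 in ES-LIF(+), 105, 140.3 and 10.9 in ES-LIF(-), 302, 245 and 560.4 in CP and 712, 1102 and 999 in CM, with CP arrays that differed widely, and its rise to CM, 1.37 ± 0.49 (adjusted p = 0.0367), lost its call without CP replicate 1 (1.27), CP replicate 2 (1.13), CM replicate 2 (1.24) or CM replicate 3 (1.31).

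Cltb, a clathrin light chain, read 1016, 904 and 1182 in ES-LIF(+), 238, 335 and 316 in ES-LIF(-), 784, 771 and 673 in CP and 1376, 1461 and 1344 in CM and rose from CP to CM by 0.90 ± 0.13 (adjusted p = 6.11e-05). The genes that follow showed no call between CP and CM. Fabp3, the fatty acid binding protein abundant in heart muscle, read 3353, 3962 and 3519 in ES-LIF(+), 1184, 1259.7 and 1296 in ES-LIF(-), 3273, 3348 and 3137 in CP and 2802, 3225 and 2898 in CM, and the difference between CM and CP was −0.13 ± 0.079 (adjusted p = 0.222). Gadd45b, a stress and growth arrest gene, read 437, 714 and 688 in ES-LIF(+), 212, 253 and 365 in ES-LIF(-), 671, 614 and 517 in CP and 820.4, 725 and 736 in CM, with no call between CP and ES-LIF(+) (−0.004) or between CM and CP (0.34). Ak7, an adenylate kinase of cilia and flagella, read 723, 595 and 634 in ES-LIF(+), 44.8, 31.6 and 82.3 in ES-LIF(-), 353, 334 and 261 in CP and 202, 183 and 219 in CM, lower in CP than with LIF (log2 difference −1.01 ± 0.24, adjusted p = 0.00195) and with a difference between CM and CP of −0.60 ± 0.24 (adjusted p = 0.055).

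**Figure D3:**
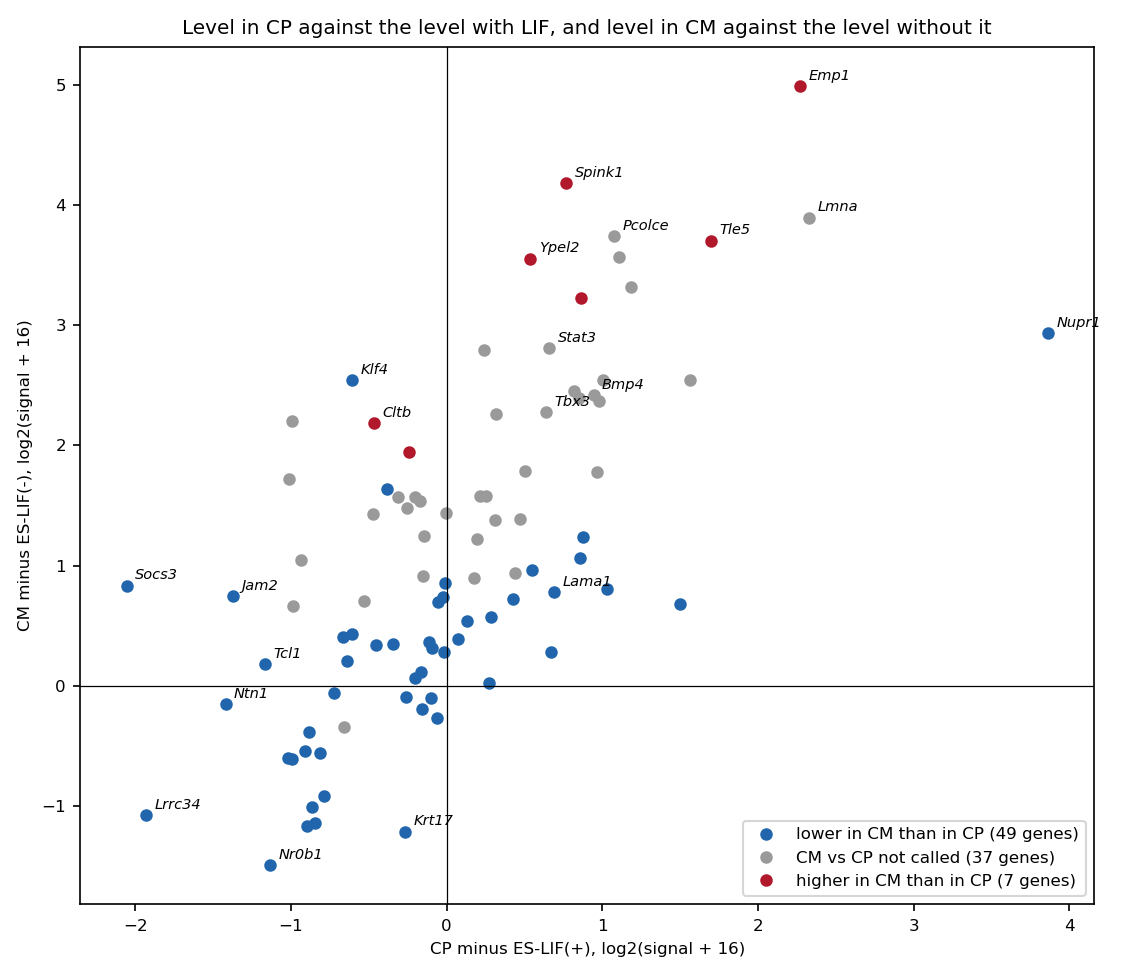
Difference between CP and ES-LIF(+) (horizontal, log2) against the difference between CM and ES-LIF(-) (vertical, log2) for the 93 members, comparisons that share no arrays, coloured by the call between CM and CP. Of the 49 genes lower in CM than in CP, Nupr1, Klf4, Bcl3, Adgre5 and Fcgrt lie above 1 on the vertical axis, and the 7 genes higher in CM lie at 1.94 (Stard8) or above.

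The 119 genes that were lowered without LIF and not raised by 1 log2 unit in CP give a comparison in the same samples. They include genes that rose by less, such as Kit and Slc15a1 (0.97 each). In CP, 0 were higher and 93 lower than in ES-LIF(+), against 22 and 19 of the members, a contrast that the rule itself made. Between CM and CP, 5 were higher and 59 (49.6%) lower, with a median of −0.70, against 7 and 49 (52.7%) of the members with −0.74. Against ES-LIF(-), 14 were higher in CM and 49 lower, with a median of −0.47, against 56 and 7 of the members with 0.89. No test of the difference between the sets was made, since both were picked on ES-LIF(-) and CP, which these comparisons share.

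**Figure D4:**
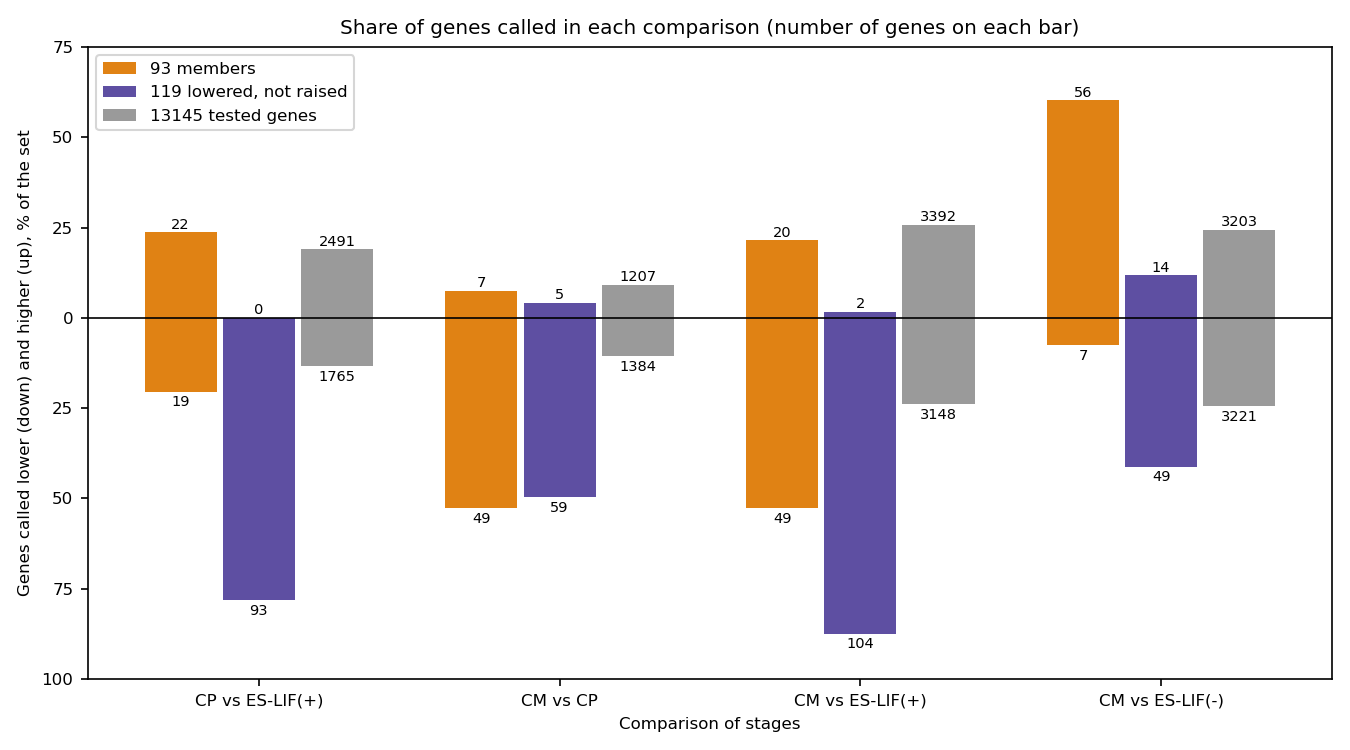
Share of genes called higher (upward bars) and lower (downward bars) in 4 comparisons, for the 93 members, for the 119 genes lowered without LIF and not raised by 1 log2 unit in CP, and for all 13145 tested genes, with the number of genes on each bar. Members and the 119 genes have like shares of lower genes in CM against CP (52.7% and 49.6%), and they part in CM against ES-LIF(-), where 60.2% and 11.8% were higher.

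Other gene lists held few members, and their calls between CP and ES-LIF(+) are to be read beside the 19.0% higher and 13.4% lower among all tested genes. Among 28 immediate early genes, induced within minutes of a stimulus, Junb and Gadd45b were members, and of the 27 tested 12 were higher and 2 lower in CP than with LIF. Among 29 genes that respond to NF-κB or TNF, Bcl3 and Icam1 were members, and of 23 tested 10 stood higher and 4 lower in CP than with LIF, whereas 4 were higher and 5 lower in CM than in CP, beside 9.18% and 10.5%. Interferon response genes had 0 members of 31 named, with Irf9 and Ifitm1 lowered and not raised, and 12 of 30 tested were higher and 4 lower in CP than with LIF. The list of Id and BMP target genes held Tbx3 and Bmp4, and 9 of its 18 tested genes stood higher and 1 lower in CP than with LIF.

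Against the same shares of 19.0% and 13.4%, epithelial junction and keratin genes held Gjb5 and Krt17 of 19 named, with 1 of 18 tested higher and 3 lower in CP than in ES-LIF(+). Extraembryonic endoderm genes held Lama1, with 10 of 16 higher and 0 lower, and trophoblast genes held Tfap2c, with 4 of 13 higher and 2 lower. Primed epiblast genes, those of the state that follows the naive one, had 0 members of 17, and 12 of the 17 were higher in ES-LIF(-) than with LIF and 12 lower in CP than in ES-LIF(-), beside 4.15% and 14.6%. A gene higher in ES-LIF(-) than with LIF could not be a member. The rule used both of these comparisons, so the primed counts are a description only. Metallothionein and antioxidant genes (3 of 15 higher and 4 lower in CP than in ES-LIF(+)), blood and macrophage genes (3 of 11 higher and 1 lower) and cardiac muscle genes (4 of 12 higher and 1 lower) had 0 members. All 12 cardiac muscle genes were higher in CM than in CP, beside 9.18%. The summed endoderm markers ran from 334 to 462 over the ES stages, from 2211 to 2427 in CP and from 5045 to 5875 in CM, where 3, 2 and 1 of the 5 read below the array median, and those of trophoblast from 357 to 1105 in the ES stages, from 1047 to 1120 in CP and from 1522 to 1995 in CM, beside the values of Lama1 and Tfap2c, and their part in either was not tested. The single markers did not move together. From CP to CM the mean signals of Gata4 (393 to 1642), Gata6 (1205 to 2719) and Ttr (74.1 to 694) rose. Those of Sox17 (611 to 382) and Afp (54.3 to 17.5) fell. Gata4 was also used as a cardiac factor in the study. Of the trophoblast markers, Eomes read 820 in CP and 1076 in CM, Plac1 158 and 409, Cdx2 36.6 and 213, and Elf5 60.4 and 61.5. Blood markers summed to between 596 and 1180 over all stages, with Ptprc below the array median in each.

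Other probe sets of the same genes were not used by the rule, although they share its RNA and arrays. There were 104 of them, and 68, which belong to 41 members, passed the filter on low signals, while 47 members had no other probe set. Of the 68, 65 were lower in ES-LIF(-) than in ES-LIF(+) and higher in CP than in ES-LIF(-), 37 of them by at least 1 log2 unit each way. The median differences were −1.5 and 1.68. The genes were chosen for this pattern, and the filter needed only 3 arrays above the array median. A probe set high in a single stage could pass. That of Sting1 did, with means of 20.5 in ES-LIF(+), 3.9 in ES-LIF(-), 285 in CP and 9.73 in CM. The share among probe sets of all genes was not counted, so these counts are a description only. The sign of the difference between CM and CP was that of the gene's brightest probe set in 59 of 68. The further probe set of Klf4 gave −3.74 without LIF and −0.64 between CP and ES-LIF(+). Those of Socs3 gave −3.47 and −3.22 without LIF, and differed from the first in CP as given above. For Stat3, one of the others that passed the filter gave 0.29 between CM and CP and another −0.48, so the course of Stat3 after CP depends on the probe set.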

How the data were processed

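RNA of 12 samples, 3 for each stage, was hybridized to Affymetrix Mouse 430 2.0 arrays. The deposited intensity values came from MAS5, and the authors scaled each array, and the 2% trimmed mean was 496 to 497 on every array. The values are linear and were taken to log2(signal + 16) with no further scaling. After removal of 64 control probe sets, 45037 remained, of which 34945 name 1 gene in the platform table, 932 several and 9160 none. A gene is represented by its brightest single-symbol probe set. A gene was tested when that probe set exceeded the array median on at least 3 of 12 arrays, which 13145 of 18193 genes and all 93 members did.

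All arrays were fitted together with limma 3.58.1 (R 4.3.3; lmFit and eBayes with an intensity trend). Adjusted p values are Benjamini-Hochberg values over all tested genes, and a call also needs a fold above 1.5. Errors of differences are standard errors of the fit, and errors of signals are SD over 3 arrays. Of genes changed in simulated data (CM against CP, 13145 genes), 51 of 67 changed 2-fold, 59 of 67 changed 3-fold and 63 of 66 changed 4-fold were recovered with the right sign. The number of arrays limits the precision.

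The members, the gene lists and the tests were chosen with earlier results of these data known. Named are the members on lists of LIF signalling, LIF responsive, naive, immediate early, NF-κB, interferon, BMP and metallothionein genes, up to 3 of each other list, the brightest 8, the 8 largest differences of each kind the rule used, the 4 largest called differences each way in each tested contrast, and genes at the thresholds. Other names in the text come from the groups they are counted in. Detection flags, used in the study's filter, were not used here. Promoter windows are RefSeq's (GRCm38.p6). Alternatives in scaling, pseudocount, filter, test, probe set, threshold and replicates are in the closing section.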

Additional observations from a re-analysis of the deposited data

How the results depend on the processing

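Depending on the array left out, the rule found 86 to 107 genes, and for the 93 members the count called higher and lower ran from 20 to 23 and 17 to 22 in CP against ES-LIF(+), from 5 to 7 and 47 to 51 in CM against CP, from 17 to 20 and 45 to 49 in CM against ES-LIF(+), and from 54 to 58 and 6 to 9 in CM against ES-LIF(-). Median centring changed the count in CP against ES-LIF(+) to 13 higher and 31 lower and that of lower members in CM against ES-LIF(-) to 12. It moved the median of all tested genes by −0.284, −0.319 and −0.305 in CP and CM against ES-LIF(+) and in CM against ES-LIF(-), and quantile normalization by −0.127, −0.161 and −0.15. A filter on all 12 arrays left 58 members, with 14 higher in CP against ES-LIF(+), 3 higher and 29 lower in CM against CP, 12 higher and 30 lower in CM against ES-LIF(+) and 36 higher in CM against ES-LIF(-), because fewer members were tested. A fold of 2 gave 11 higher and 8 lower in CP against ES-LIF(+) and 3 higher in CM against CP. A threshold of 0.8 in the rule gave 151 genes and 1.2 gave 62, a signal of 100 gave 113 and 400 gave 70, and other scaling, pseudocounts or probe sets gave 70 to 104. Of the 93 members, 73 were still found without ES-LIF(-) replicate 1, and 86 or more without any other array. With the mean over probe sets 72 were still found, with median centring or a pseudocount of 64 70, and with quantile normalization 76.

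Of 2532 values of named genes under alternatives, 2443 kept direction and call, 58 lost the call, 16 gained it and 15 reversed. The cause of the reversals was not tested. With median centring Junb in CM against ES-LIF(+) was −0.00668 and Tcl1 in CM against ES-LIF(-) −0.125 (−0.149 with quantile normalization). With the mean over probe sets Stat3 in CM against CP was −0.0899, and in CM against ES-LIF(-) Esrrb was 0.00411 and Tfcp2l1 0.161. In CP against ES-LIF(+), leaving out 1 array gave −0.152 to 0.0297 for Icam1 (above 0 without ES-LIF(+) replicate 1), −0.225 to 0.119 for Gadd45b (above 0 without ES-LIF(+) replicate 2 or 3 or CP replicate 3), −0.187 to 0.0864 for Tfap2c (above 0 without ES-LIF(+) replicate 2 or 3) and −0.175 to 0.23 for Gjb5 (above 0 without ES-LIF(+) replicate 3 or CP replicate 1). Bmp4 in CM against CP ran from −0.0328 (without CM replicate 1) to 0.112. Same-numbered arrays of different stages did not deviate together (r from −0.0612 to 0.0996 over 18 pairs), so the numbers were not taken as pairs. The labels do not say whether equal numbers share a culture or a batch, so a batch shared across other numbers was not tested. With the replicate number as a block, the counts were 23 higher and 21 lower, 7 and 50, 20 and 49, and 56 and 8 in the 4 comparisons in that order, within 1.5 times the counts without it. The standard error of the difference between CM and CP had a median of 0.23 for the 22 members below the array median in ES-LIF(-) and of 0.16 for the other 71, with overlapping ranges.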

Other observations

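Some members outside the lists, chosen after their values were seen, act in fatty acid transport and in autophagy and the lysosome. Cpt1a, which passes long-chain fatty acids to carnitine at the mitochondrial outer membrane, read 1281, 1347 and 1437 in ES-LIF(+), 545, 445 and 580.5 in ES-LIF(-), 1594, 1502 and 1633 in CP and 1873, 1515 and 1397 in CM, and Slc25a20, which carries the acylcarnitines across the inner membrane, read 799, 722 and 819 in ES-LIF(+), 363, 278 and 439 in ES-LIF(-), 886, 837 and 1095 in CP and 1020.4, 1029.9 and 1233 in CM. Neither differed by a call between CP and ES-LIF(+) (0.22 and 0.26) or between CM and CP (0.007 and 0.22).

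Tfeb, the transcription factor of lysosomal genes, read 523, 532 and 600 in ES-LIF(+), 36.5, 88.2 and 83.4 in ES-LIF(-), 314, 248 and 250.1 in CP and 377, 383 and 323 in CM, lower in CP than with LIF (log2 difference −0.99 ± 0.23, adjusted p = 0.00184). Ulk1, a kinase that starts autophagy, read 1980.2, 2505 and 2299.9 in ES-LIF(+), 548, 809.9 and 811 in ES-LIF(-), 1520.5, 1652 and 1496 in CP and 1181, 1248 and 1092 in CM, and its difference between CM and CP was −0.40 ± 0.13 (adjusted p = 0.0245), under the 1.5-fold limit. Calcoco2, an autophagy receptor, read 1249, 985 and 945 in ES-LIF(+), 196, 171 and 182 in ES-LIF(-), 1446, 1247 and 1175 in CP and 231, 282 and 336 in CM, with CP near its level with LIF (0.28, not called), and was lower in CM than in CP (log2 difference −2.13 ± 0.15, adjusted p = 3.64e-08). Abca1, which exports cholesterol, read 1188, 1412 and 1507 in ES-LIF(+), 231, 205 and 202 in ES-LIF(-), 888, 810.3 and 869.8 in CP and 304, 239 and 323 in CM, lower in CP than with LIF (log2 difference −0.66 ± 0.13, adjusted p = 5.92e-04) and lower in CM than in CP (log2 difference −1.53 ± 0.13, adjusted p = 3.39e-07). No statement is made on these processes, since the genes were picked by name from the members.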
